A study of Mus musculus with 2 samples.

Results

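The genes described here are 9 members of the complement system other than the C1q chains: *C3*, *C4b*, *C2*, *Cfb*, *C1ra*, *Serping1*, *Cfp*, *C3ar1* and *C5ar1*. They were chosen by symbol from the 31053 genes measured, and each symbol matched 1 row in both libraries. The study collected live cells from wounds and adjoining back skin of C57BL/6 mice aged 7 to 9 weeks, cut out on day 5 with a 10 mm punch, and measured them by droplet single-cell RNA sequencing. Each molecule of RNA was tagged with a cell barcode and a unique molecular identifier (UMI), and UMIs are counted. There are 2 libraries, PBS and DTX, each from cells of 3 pooled mice, so that each group is 1 library. Both are labelled as genotype Mrc1-DTR, one given PBS and the other diphtheria toxin, while the study's methods describe the controls as wild-type mice given the toxin. In Mrc1-DTR mice the *Mrc1* promoter drives the diphtheria toxin receptor, and *Mrc1* encodes the macrophage surface protein CD206. The study used the toxin to remove CD206+ macrophages and then examined the cells of the wound.

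Complement is a cascade of plasma and tissue proteins that tags surfaces and calls in leukocytes. The classical route starts with C1, whose protease C1r activates C1s, which cleaves C4 and C2 into an enzyme that cleaves C3, while the alternative route builds its enzyme from C3 and factor B and is stabilised by properdin. C1 inhibitor blocks C1r and C1s, and the small fragments C3a and C5a act on leukocytes through the receptors C3AR1 and C5AR1. The liver makes most plasma complement, and stromal cells and macrophages also make complement proteins in tissue.

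In the mouse genome build GRCm38, to which the study's mm10 corresponds, *C3* lies on chromosome 17 from 57203970 to 57228136. *C4b* (34728380 to 34743882), *Cfb* (34856374 to 34862518) and *C2* (34862604 to 34898265) lie together elsewhere on chromosome 17, all on the minus strand. *Cfb* and *C2* are 85 bases apart, and the predicted gene *Gm20547* covers 6107 bases of *Cfb* and 19439 bases of *C2*. Reads that fit more than 1 gene are not counted by Cell Ranger, and *Gm20547* had no UMI in any class, so the levels of *Cfb* and *C2* may be low for that reason and are uncertain. *C1ra* has a near-identical neighbour, *C1rb*, which is in the gene list of the files, so its level is uncertain in the same way. *C4b* has one in *C4a*, for which the gene list holds no row. Whether reads of *C4a* were counted as *C4b* was not tested, so its level is also uncertain. *C1ra* lies on chromosome 6 from 124512405, *C3ar1* on chromosome 6 from 122847138, *C5ar1* on chromosome 7 from 16246743, *Serping1* on chromosome 2 from 84765387 and *Cfp* on chromosome X from 20925454.

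Promoter sequences from RefSeq (GRCm38.p6) were found for 5 of the 9 members, *C3*, *C1ra*, *Cfp*, *C3ar1* and *C5ar1*. The 250 bases before the start are shown for *C3*, which was seen in both fibroblasts and macrophages, and for *Cfp*, which was seen in leukocytes. They are at chr17:57228137-57228386 and chrX:20931556-20931805, both on the minus strand and written 5′ to 3′, and the capitals mark a match to the C/EBP motif TTGCNNAA.
C3: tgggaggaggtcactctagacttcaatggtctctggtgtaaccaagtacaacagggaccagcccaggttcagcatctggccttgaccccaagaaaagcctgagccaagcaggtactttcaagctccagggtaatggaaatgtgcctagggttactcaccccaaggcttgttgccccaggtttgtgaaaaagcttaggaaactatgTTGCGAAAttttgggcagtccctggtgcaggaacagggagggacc
Cfp: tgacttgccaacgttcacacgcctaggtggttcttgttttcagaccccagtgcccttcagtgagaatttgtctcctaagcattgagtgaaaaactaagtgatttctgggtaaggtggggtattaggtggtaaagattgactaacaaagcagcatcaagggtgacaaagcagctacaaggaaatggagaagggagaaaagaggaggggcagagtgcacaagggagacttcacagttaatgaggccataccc
The C/EBP letters, searched on both strands and added after the sequences had been seen, were found in 1 of the 5 promoters, beginning 45 bases before the start of *C3*, and in 9.56% of 32851 promoters of the same length. The STAT motif TTCNNNGAA, the interferon response element and the NF-kappaB motif, which can overlap each other, were found in 0 of the 5 and in 7.02%, 2.98% and 7.25% of all promoters. A missing match says only that these letters are not in this window.

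A cell was kept if it had 500 or more genes and no more than 6% of its UMIs from mitochondrial genes, and without doublets this left 7944 PBS cells (81235634 UMIs) and 6613 DTX cells (54872675 UMIs). Clusters were rebuilt without complement genes and named from marker genes, so that the classes are called "-like". The PBS library held 21.7% macrophage-like and 38.6% fibroblast-like cells, and the DTX library 67.3% and 9.92%. The 2 libraries shared 13 barcodes among these cells. Levels are UMIs of all cells of a class per 1000000 UMIs (CPM), and a difference is the log2 ratio of DTX to PBS with 1 CPM added. With 1 library per group no test of the conditions is possible, and all intervals are 95% intervals that cover counting error only. RNA of other cells differed between the libraries. The summed level of 6 fibroblast genes in macrophage-like cells was 906 CPM in PBS and 182 in DTX, and that of 8 macrophage genes in fibroblast-like cells was 138 and 413 CPM, with no gene of either list at 0 there. The macrophage genes were uneven over the fibroblast-like clusters described below. Cluster 4 had 1901 CPM in PBS and 3514 CPM in DTX, and held 1389 of 4852 and 2847 of 4018 of their UMIs. Clusters 0 to 3 had 86.1 to 199 CPM in PBS and 96.1 to 225 CPM in DTX, and cluster 5 had 137 and 48.6 CPM. *Mrc1*, whose promoter drives the toxin receptor, was at 489 CPM in PBS and 428 CPM in DTX macrophage-like cells, a log2 ratio of -0.19 (-0.24 to -0.14).

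The 9 genes fell into a stromal and a leukocyte group. In the PBS library 6 of them, *C3*, *C4b*, *C2*, *Cfb*, *C1ra* and *Serping1*, had their highest level in fibroblast-like cells. *C3ar1* was highest in macrophage-like, *C5ar1* in neutrophil-like and *Cfp* in mast-like cells, where its interval overlapped that of macrophage-like cells. The same 6 genes were highest in fibroblast-like cells in the DTX library, where *Cfp* was highest in macrophage-like cells. Across 16 points, 8 classes in each library, the log2 levels of *Serping1* and *C1ra* had a Pearson correlation of 0.98, those of *Cfp* and *C3ar1* one of 0.94, and those of *C2* and *Cfp* one of -0.50. These points share libraries and RNA of other cells, and the values are descriptive.

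**Figure D1:**
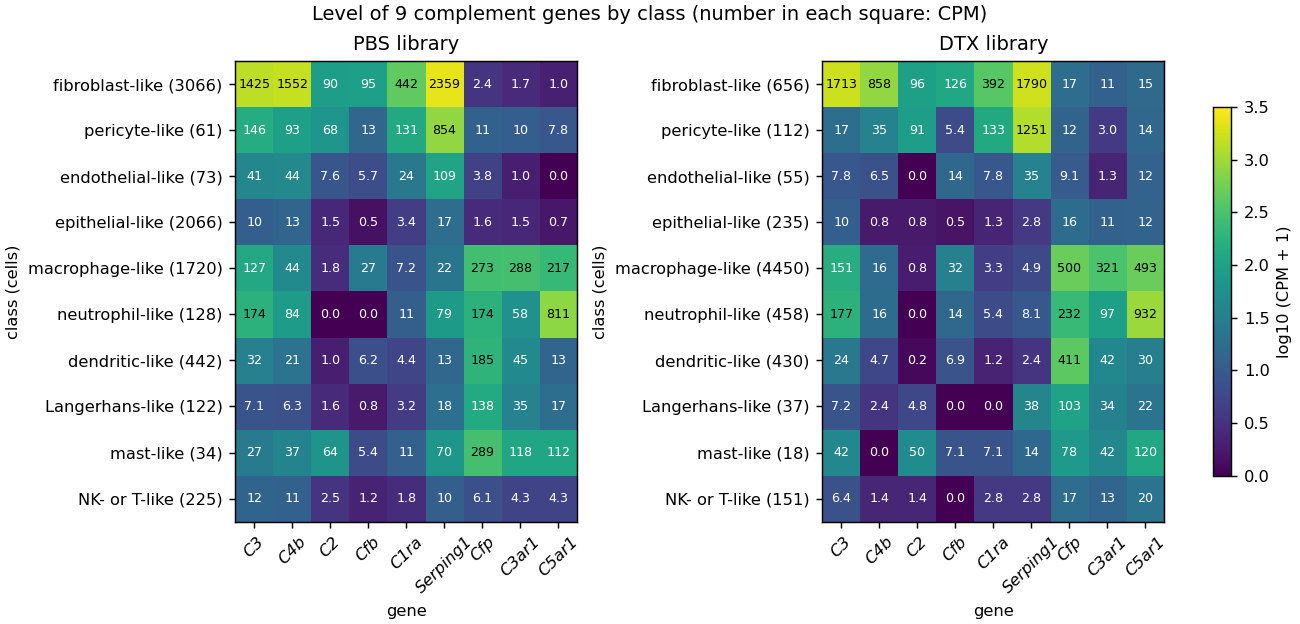
Level of each gene in 10 classes of the PBS (left) and DTX (right) library, with the number in each square in CPM, the colour on a log10 scale and the number of cells beside each class. The 6 genes at the left are brightest in fibroblast-like cells, from 90.0 CPM for C2 to 2359 CPM for Serping1 in PBS, and the 3 at the right in leukocyte classes.

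*C3* encodes the central protein on which all routes of activation meet. In fibroblast-like cells it was at 1425 CPM (1413 to 1438, 49925 UMIs) in PBS and 1713 CPM (1687 to 1739, 16647 UMIs) in DTX. The DTX level was the higher by a log2 ratio of 0.27 (0.24 to 0.29), and the intervals of the libraries do not overlap. In PBS neutrophil-like (174 CPM), pericyte-like (146 CPM) and macrophage-like cells (127 CPM) followed, each overlapping the next, and in DTX neutrophil-like (177 CPM) and macrophage-like cells (151 CPM). The macrophage-like ratio was 0.25 (0.15 to 0.34) and the neutrophil-like ratio 0.02 (-0.51 to 0.60), so in neutrophil-like cells no difference was detectable at 33 and 197 UMIs. The 6 fibroblast genes were at 2519 CPM in PBS and 422 CPM in DTX neutrophil-like cells, and their part in the *C3* values was not tested. Dendritic-like cells had 32.3 and 24.3 CPM, and epithelial-like cells 10.1 and 10.0 CPM. After each cell was thinned to 2000 UMIs, 64.4% of PBS and 49.4% of DTX fibroblast-like cells had a *C3* UMI (81.7% and 70.6% before thinning, at median depths of 11177 and 13978 UMIs). Thus fewer DTX cells had *C3*, while the level of the class was higher. The 10% of fibroblast-like cells with most *C3* UMIs held 49.3% of the *C3* UMIs in PBS and 61.7% in DTX, and single cells had up to 335 and 413. In macrophage-like cells the thinned share was 19.7% (17.7 to 21.8) and 23.0% (21.7 to 24.3), against 3.20% and 1.32% in NK- or T-like cells, taken as background, which had median depths of 6534 and 8059 UMIs. The macrophage-like cells had median depths of 4721.5 and 6731.5 UMIs and unthinned shares of 33.2% and 48.5%. In DTX pericyte-like cells, which wrap small vessels, *C3* was at 17.3 CPM against 146 CPM in PBS, a log2 ratio of -3.01 (-3.61 to -2.45). This rests on few cells. One of the 61 PBS cells held 71 of the 131 UMIs, and without the richest cell of each library the levels were 69.0 and 15.1 CPM and the ratio -2.12 (-2.82 to -1.46).

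*C4b*, a mouse gene for C4, was lower in DTX in all 6 classes in which it had at least 50 UMIs. In fibroblast-like cells it was at 1552 CPM (54365 UMIs) in PBS and 858 CPM (8342 UMIs) in DTX, a log2 ratio of -0.85 (-0.89 to -0.82). The share of cells with a UMI after thinning was 69.4% in PBS and 48.8% in DTX (83.0% and 67.2% before it). Macrophage-like cells had 44.3 and 15.8 CPM, a ratio of -1.43 (-1.62 to -1.24), and dendritic-like cells 20.7 and 4.65 CPM, a ratio of -1.94 (-2.54 to -1.35). The 6 fibroblast genes were also lower in DTX in both of these leukocyte classes. They were at 906 and 182 CPM in macrophage-like and at 567 and 109 CPM in dendritic-like cells. Their part in the *C4b* values was not tested. Pericyte-like cells had 92.8 and 34.5 CPM (-1.40, from -1.90 to -0.91), and again 1 PBS cell held 29 of 83 UMIs. Without the richest cells the pericyte ratio was -1.01 (-1.57 to -0.44). Endothelial-like cells had 43.9 and 6.48 CPM from 46 and 5 UMIs, with 14 of the 46 in 1 cell, and epithelial-like cells had 371 and 3 UMIs. In these 2 classes too the 6 fibroblast genes were lower in DTX. They were at 7646 and 3715 CPM in endothelial-like and at 711 and 93.8 CPM in epithelial-like cells, and their part was not tested.

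*C2* and *Cfb* are neighbours that encode the proteases which cleave C3, *C2* in the classical and *Cfb* in the alternative route. *C2* was at 90.0 CPM (86.9 to 93.2) in PBS and 95.7 CPM (89.6 to 102) in DTX fibroblast-like cells, with overlapping intervals and a ratio of 0.09 (-0.02 to 0.19). Pericyte-like cells had 68.2 and 91.1 CPM, a ratio of 0.41 (-0.02 to 0.86), and in the DTX as in the PBS library their interval overlapped that of fibroblast-like cells. Mast-like cells came next with 64.3 and 49.5 CPM, from only 12 and 7 UMIs. In macrophage-like cells *C2* had 15 and 26 UMIs, 1.78 and 0.846 CPM, and in neutrophil-like cells 0 UMIs in both libraries. *Cfb* differed from *C2* in that it was also measured in macrophage-like cells. It was at 94.9 CPM (91.7 to 98.2) in PBS and 126 CPM (119 to 133) in DTX fibroblast-like cells, a ratio of 0.40 (0.31 to 0.49). In macrophage-like cells it was at 26.6 CPM (23.2 to 30.3) and 32.1 CPM (30.2 to 34.2), whose intervals just overlap, with a ratio of 0.27 (0.06 to 0.47). The thinned share of cells with a *Cfb* UMI was 13.3% and 17.5% in fibroblast-like and 5.20% and 5.66% in macrophage-like cells (41.1%, 47.1%, 11.1% and 17.2% before thinning). In epithelial-like cells, with median depths of 12592 and 16070 UMIs, it was 0.0492% and 0.437%.

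*C1ra*, which encodes C1r, and *Serping1*, which encodes the inhibitor of that protease, were both led by fibroblast-like and then pericyte-like cells. *C1ra* was at 442 CPM (15497 UMIs) in PBS and 392 CPM (3810 UMIs) in DTX fibroblast-like cells, a ratio of -0.17 (-0.23 to -0.12). Pericyte-like cells had 131 and 133 CPM, a ratio of 0.03 (-0.30 to 0.36), and endothelial-like cells 23.8 and 7.78 CPM. *Serping1* was at 2359 CPM (82637 UMIs) in PBS and 1790 CPM (17393 UMIs) in DTX fibroblast-like cells, a ratio of -0.40 (-0.42 to -0.37). In pericyte-like cells the difference had the opposite sign. They had 854 CPM (795 to 917) in PBS and 1251 CPM (1198 to 1306) in DTX, a ratio of 0.55 (0.43 to 0.67), and the thinned share of cells with a UMI was 73.7% and 88.0% (91.8% and 100% before thinning). For comparison, 2.66% of PBS and 0.437% of DTX epithelial-like cells had a *Serping1* UMI after thinning. In endothelial-like cells *Serping1* was at 109 and 35.0 CPM, a ratio of -1.61 with an interval below 0. This rests on few cells. One of the 73 PBS cells held 44 of the 114 *Serping1* UMIs, and for *C1ra* 1 cell held 13 of 25. Without the richest cell of each library the *Serping1* ratio was -1.32 (-2.08 to -0.60). The 6 fibroblast genes were at 7646 and 3715 CPM in this class, and their part was not tested.

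The fibroblast-like cells formed 6 clusters that differed in these genes within each library. Cluster 0 had raised markers of *Plac8* or fascia fibroblasts, and the other clusters were left without a name. *C3* was at 2091 CPM in PBS and 2619 CPM in DTX cells of cluster 0, which in PBS was a log2 ratio of 1.00 (0.97 to 1.02) over all other fibroblast-like cells and in DTX one of 2.03 (1.97 to 2.08). *C4b* had another order. It was lowest among the 4 large clusters in PBS cluster 0, at 524 CPM, and highest in cluster 2 (leading genes *Ctla2a*, *Gpx3* and *Cpxm1*), at 2932 CPM in PBS and 3216 CPM in DTX. *Serping1* was also highest in cluster 2, at 3765 and 3220 CPM, and *Cfb* in cluster 0, at 153 and 181 CPM. Between the libraries *C4b* was higher in DTX in clusters 0 and 2, with ratios of 0.48 (0.42 to 0.54) and 0.13 (0.071 to 0.19). In clusters 1 (*Igfbp2*, *Grem1*, *Ccl8*) and 3 (*Coch*, *Hspa1a*, *Fmod*) both *C3* and *C4b* were lower in DTX by more than 2-fold. *C3* was at 913 and 407 CPM in cluster 1 and at 460 and 173 CPM in cluster 3, and *C4b* at 2086 and 920 CPM and at 1016 and 440 CPM. Of all genes compared, 3.67% in cluster 1 and 2.21% in cluster 3 were at least 2-fold lower in DTX, and these were 2 of 6 members in each. Cluster 0 made up 27.9% of PBS and 45.6% of DTX fibroblast-like cells, and cluster 2 made up 21.6% and 8.38%. With the DTX clusters weighted by their share of UMIs in PBS, the ratio of *C4b* was -0.27 in place of -0.85, that of *C3* -0.02 in place of 0.27 and that of *Serping1* -0.26 in place of -0.40. That weighting was added after seeing the clusters.

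**Figure D2:**
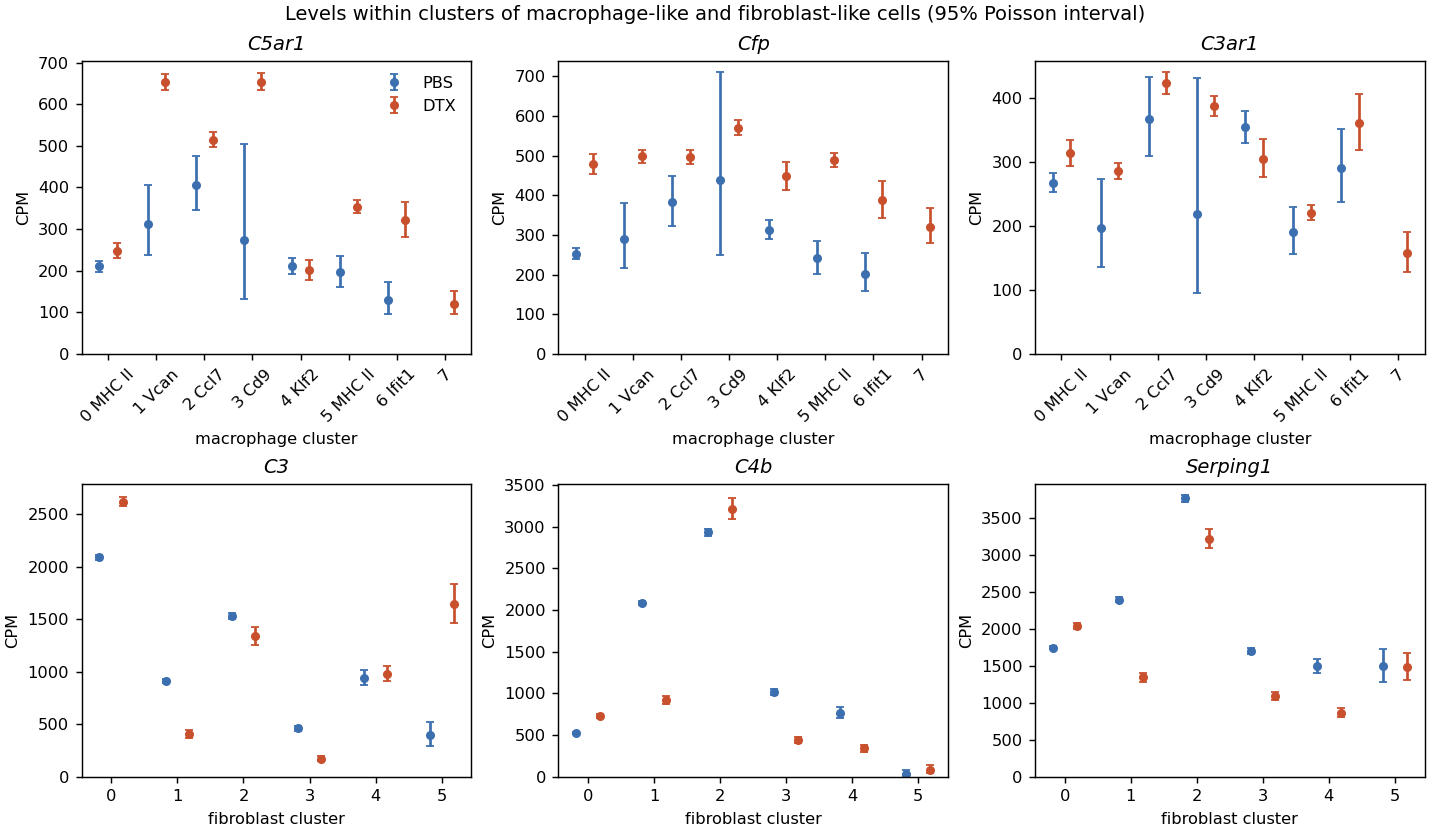
Levels in CPM (vertical axes, from 0) in the clusters of macrophage-like cells (top: C5ar1, Cfp and C3ar1) and of fibroblast-like cells (bottom: C3, C4b and Serping1), for the PBS (blue) and DTX (orange) library with 95% Poisson intervals. C5ar1 is highest in DTX cells of clusters 1 and 3, at 653 and 654 CPM, and C4b is highest in fibroblast cluster 2. Cfp is higher in DTX in each cluster present in both libraries, in cluster 3 against only 16 UMIs in 8 PBS cells.

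Levels in classes with little of a gene can come from RNA of other cells, so each stromal gene was set against the 6 fibroblast genes in the same cells. For *Serping1* the intervals of the macrophage-like, dendritic-like and epithelial-like cells held the fibroblast-like value in both libraries. There were 25.6 *Serping1* UMIs per 1000 fibroblast UMIs in PBS fibroblast-like cells, 23.9 (20.6 to 27.7) in macrophage-like, 23.9 (21.8 to 26.2) in epithelial-like and 23.4 (17.6 to 30.7) in dendritic-like cells, and in DTX 26.7 in fibroblast-like and 27.1 (22.9 to 31.9) in macrophage-like cells. The *Serping1* level was 21.7 CPM in PBS and 4.94 CPM in DTX macrophage-like cells, a ratio of -1.93 (-2.21 to -1.65). The 6 fibroblast genes were at 906 and 182 CPM there, and their part in this ratio was not tested. Pericyte-like cells differed, with 35.2 (32.7 to 37.9) and 69.6 (66.6 to 72.7) *Serping1* UMIs per 1000 fibroblast UMIs. For *C3* and *Cfb* the proportions differed. *C3* had 15.5 UMIs per 1000 in PBS fibroblast-like, 14.2 (12.6 to 15.9) in epithelial-like and 19.0 (11.5 to 29.5) in NK- or T-like cells, against 140 (132 to 150) in macrophage-like cells. In DTX macrophage-like cells the *C3* value was 828 (796 to 861), against 25.5 in fibroblast-like cells. It was also higher in DTX epithelial-like cells, at 107 (74.9 to 149), and was 43.9 (19.8 to 85.0) in NK- or T-like cells. Dendritic-like cells had 56.9 (47.3 to 67.9) in PBS and 223 (181 to 272) in DTX, so a raised value was not particular to macrophage-like cells. *Cfb* had 1.03 in PBS fibroblast-like and 29.3 (25.5 to 33.5) in macrophage-like cells. *C4b* lay between, with 16.8 in PBS fibroblast-like, 18.3 (16.5 to 20.3) in epithelial-like and 48.9 (44.0 to 54.3) in macrophage-like cells. In DTX macrophage-like cells it was 86.9 (79.0 to 95.3), and in fibroblast-like cells 12.8.

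**Figure D3:**
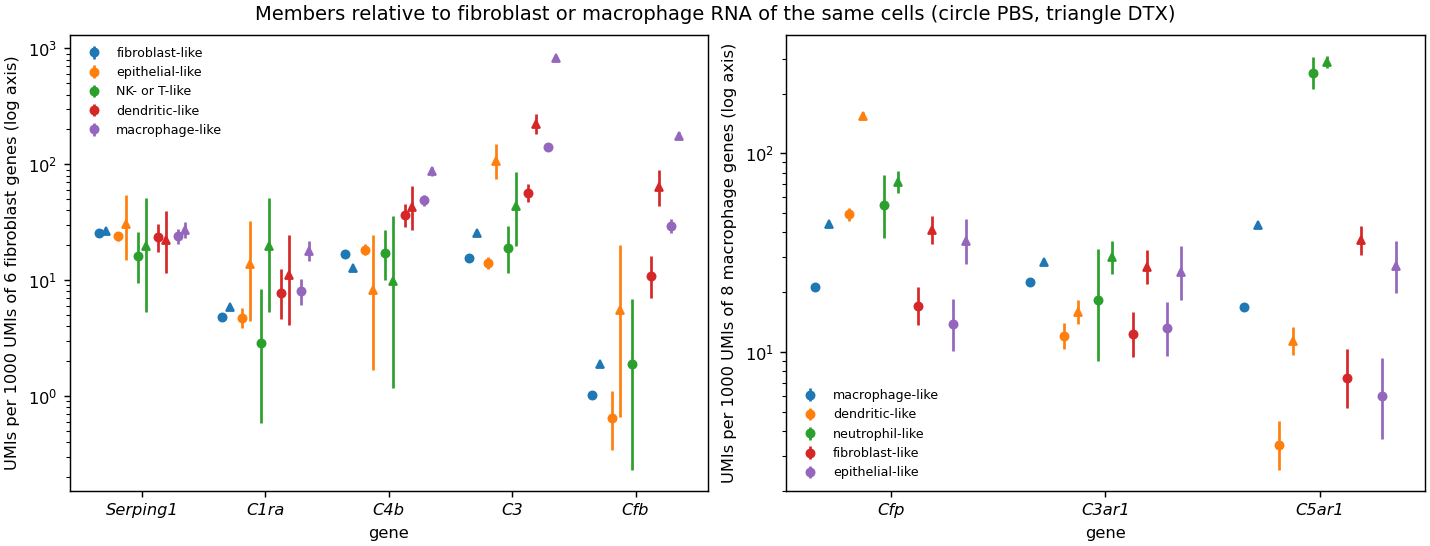
UMIs of each gene per 1000 UMIs of 6 fibroblast genes (left) or 8 macrophage genes (right) in the same class, on log axes with 95% counting intervals, as circles for PBS and triangles for DTX. Serping1 lies between 16.1 and 30.2 in the classes shown at the left, while C3 and Cfb lie far above the fibroblast-like value in macrophage-like cells.

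*Cfp* encodes properdin, which stabilises the enzyme of the alternative route and is made by leukocytes. In macrophage-like cells it was at 273 CPM (262 to 285, 2305 UMIs) in PBS and 500 CPM (492 to 507, 15361 UMIs) in DTX, a ratio of 0.87 (0.80 to 0.93). Dendritic-like cells had 185 CPM (172 to 199) and 411 CPM (393 to 429), a ratio of 1.14 (1.02 to 1.27). The intervals of the libraries do not overlap in either class. The thinned share of cells with a *Cfp* UMI was 35.5% and 59.1% in macrophage-like and 28.1% and 46.0% in dendritic-like cells (56.3%, 84.9%, 55.4% and 77.4% before thinning), against 1.83% and 2.65% in NK- or T-like cells. Neutrophil-like cells had 174 and 232 CPM, a ratio of 0.41 (-0.11 to 0.98), and Langerhans-like cells 138 and 103 CPM, a ratio of -0.42 (-0.93 to 0.06). Mast-like cells had the opposite sign, with 289 CPM in PBS and 77.8 CPM in DTX and a ratio of -1.88 (-2.95 to -0.94), from 54 UMIs in 34 cells and 11 UMIs in 18 cells. The 8 macrophage genes summed to 150 CPM in PBS mast-like cells, with 2 of them at 0, and to 1266 CPM in the DTX ones.

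*C3ar1* and *C5ar1* encode the receptors of C3a and C5a. *C3ar1* was at 288 CPM (277 to 300) in PBS and 321 CPM (314 to 327) in DTX macrophage-like cells, a ratio of 0.15 (0.09 to 0.22), and its thinned share was 41.4% and 45.1% (60.8% and 74.4% before thinning). Dendritic-like cells had 45.3 and 42.3 CPM, a ratio of -0.10 (-0.38 to 0.19). Neutrophil-like cells had 58.0 and 97.0 CPM, from 11 and 108 UMIs, and mast-like cells 118 and 42.4 CPM, from 22 and 6 UMIs. *C5ar1* had a different order of classes and a larger difference between the libraries. Neutrophil-like cells led with 811 CPM (688 to 950) in PBS and 932 CPM (876 to 990) in DTX, which overlap, and a ratio of 0.20 (-0.05 to 0.45). In macrophage-like cells *C5ar1* was at 217 CPM (208 to 228, 1834 UMIs) and 493 CPM (485 to 501, 15149 UMIs), a ratio of 1.18 (1.11 to 1.25). The thinned share of macrophage-like cells with a *C5ar1* UMI was 32.7% and 55.8% (51.2% and 80.8% before thinning). Dendritic-like cells had 12.8 and 30.3 CPM, also a ratio of 1.18 (0.75 to 1.63), and thinned shares of 1.63% and 3.74%, near the 0% (219 cells, which allows up to 1.37%) and 3.31% of NK- or T-like cells. Mast-like cells had 112 and 120 CPM from 21 and 17 UMIs.

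The macrophage-like cells formed 8 clusters, and the libraries held them in different shares. MHC class II cells (cluster 0) made up 48.0% of PBS and 9.89% of DTX macrophage-like cells, and *Klf2*-like cells (cluster 4) 34.7% and 6.20%. Beside MHC class II genes, the leading genes of cluster 0 included the C1q markers *C1qa*, *C1qc* and *Pltp*, of which *C1qa* was raised. The *Klf2*-like name rests on *Klf2*, *Nr4a1*, *Fosb* and *Hspa1a*, while *C1qa*, *C1qc*, *Cbr2* and *Folr2* were also raised in that cluster. Its median depth of 3164 UMIs was the lowest of the 8. *Vcan*-like cells (cluster 1) made up 1.80% and 23.1%, *Ccl7*-like cells (cluster 2) 6.05% and 20.8%, and *Cd9*-like cells (cluster 3) 0.465% and 21.5%. *C5ar1* was highest in DTX cells of the *Cd9*-like (654 CPM, 633 to 675), *Vcan*-like (653 CPM, 635 to 672) and *Ccl7*-like cluster (515 CPM, 496 to 534). In clusters 0 and 4, which held most PBS cells, the levels of *C5ar1* were closer between the libraries. They were 210 and 247 CPM in cluster 0 (ratio 0.23, 0.09 to 0.37) and 211 and 201 CPM in cluster 4 (-0.07, from -0.29 to 0.15). With the DTX clusters weighted as in PBS, the ratio of *C5ar1* was 0.30 in place of 1.18. *Cfp* behaved differently under the same weighting, with 0.78 in place of 0.87. It was higher in DTX in each of the 7 clusters present in both libraries, with 252 and 479 CPM in cluster 0 and 241 and 489 CPM in cluster 5, the other MHC class II cluster. In the *Cd9*-like cluster, with 438 and 571 CPM, the PBS value came from only 16 UMIs in 8 cells. *C3ar1* was highest in *Ccl7*-like cells, at 367 CPM in PBS and 423 CPM in DTX, and in cluster 4 it was 353 and 305 CPM. *Cfb* had its highest values in *Ifit1*-like cells (cluster 6), which carry interferon response genes, at 50.6 CPM (18 UMIs) in PBS and 57.1 CPM (42 UMIs) in DTX. Against the rest of the macrophage-like cells this was a log2 ratio of 0.96 (0.20 to 1.65) in PBS and 0.84 (0.37 to 1.28) in DTX. It was not particular to these cells, since DTX *Ccl7*-like cells had 50.9 CPM (291 UMIs) and a ratio of 0.85 (0.65 to 1.04) over the rest. *C3* ranged less, from 104 to 164 CPM over the PBS clusters and from 91.4 to 196 CPM over the DTX clusters. The highest values were in *Cd9*-like cells, in PBS from only 6 UMIs in 8 cells. Their log2 ratio over the rest was 0.37 (-1.07 to 1.49) in PBS, where no difference was detectable, and 0.48 (0.39 to 0.58) in DTX. Cluster 7, led by *Ctsk*, *Acp5* and *Mmp9*, had 43 cells, all in the DTX library, with *C5ar1* at 120 CPM, below all other DTX clusters.

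Members with at least 50 UMIs in a class, summed over both libraries, were counted by whether they were 2-fold apart between the libraries. A member can pass that limit through the library where it is high, as *C5ar1* did in fibroblast-like cells with 36 and 147 UMIs. The same genes are counted again in each class. In macrophage-like cells 2 of 8 members, *C4b* and *Serping1*, were at least 2-fold lower in DTX, against 3.29% of all 10190 genes compared, and 1 of 8, *C5ar1*, was at least 2-fold higher, against 1.61%. In dendritic-like cells 2 of 7 (*C4b* and *Serping1*) were lower, against 1.47%, and 2 of 7 (*Cfp* and *C5ar1*) higher, against 1.00%. In fibroblast-like cells 0 of 9 were lower, against 1.40%, and 3 of 9 higher, against 2.64%. These 3 were the leukocyte genes *Cfp*, *C3ar1* and *C5ar1*, at 2.37 and 17.1, 1.71 and 11.1, and 1.03 and 15.1 CPM. Cluster 4, with 47 PBS and 42 DTX cells led by *Cd74*, *Lyz2* and *H2-Aa*, held 92.5% of the *C5ar1* UMIs of DTX fibroblast-like cells, 87.0% of those of *C3ar1* and 79.5% of those of *Cfp*. Without that cluster *Cfp* had a ratio of 0.68, and *C3ar1* and *C5ar1* had under 50 UMIs and were not compared. Epithelial-like cells had the same 3 genes higher in DTX, 3 of 7 against 2.67%, and *C4b* and *Serping1* lower, 2 of 7 against 2.07%. *C5ar1* there had 6.00 (3.66 to 9.28) UMIs per 1000 macrophage UMIs in PBS and 27.0 (19.8 to 36.1) in DTX, against 16.9 and 43.5 in macrophage-like cells. The part of RNA from other cells in these values was not tested. Pericyte-like cells had *C3* and *C4b* lower, 2 of 5 against 2.11%, and 0 of 5 higher, against 2.22%. Endothelial-like cells had *C4b* and *Serping1* lower, 2 of 2 against 2.62%, and 0 of 2 higher, against 1.84%. Mast-like cells had *Cfp* lower, 1 of 1 against 11.6%, and 0 of 1 higher, against 11.7%. In these 2 classes *C4b* had 46 and 5 UMIs, *Serping1* 114 and 27 and *Cfp* 54 and 11. Each passed the limit mainly through its PBS UMIs, so the counts of 2 of 2 and 1 of 1 partly follow from the limit. In neutrophil-like cells 0 of 4 members were 2-fold lower or higher, against 4.46% and 6.01%, and in Langerhans-like cells 0 of 2, against 2.01% and 1.38%. Over all genes compared the ratios had a median of 0.06 in the macrophage-like class, where the members had one of 0.20. In the fibroblast-like class these medians were 0.12 and 0.27.

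**Figure D4:**
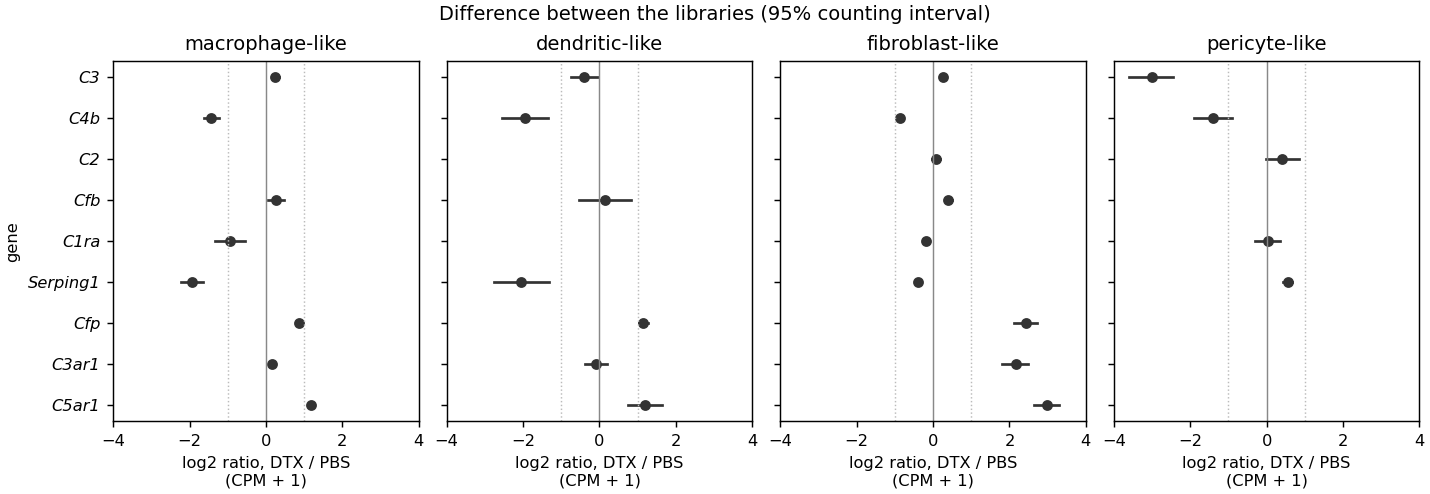
Log2 ratio of DTX to PBS for each gene in 4 classes, with points for the ratio, lines for its 95% counting interval, dotted lines at 2-fold and no point where a class held under 50 UMIs. In macrophage-like cells C4b and Serping1 lie below and C5ar1 above the 2-fold lines, and in pericyte-like cells C3 is lowest, at -3.01.

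Over all kept cells the ratios also include the different shares of the classes. *C5ar1* was at 26.5 CPM in PBS and 303 CPM in DTX, a ratio of 3.47, *Cfp* at 42.7 and 328 CPM (2.91) and *C3ar1* at 34.6 and 189 CPM (2.41). *C4b* was at 682 and 163 CPM (-2.06), *Serping1* at 1038 and 360 CPM (-1.53) and *C1ra* at 195 and 75.9 CPM (-1.35). Thus 3 of 9 members were at least 2-fold higher, against 7.40% of all genes, and 3 lower, against 9.53%. With the DTX classes weighted by their share of UMIs in PBS the ratios were smaller, 1.30 for *C5ar1*, 1.03 for *Cfp*, 0.38 for *C3ar1*, -0.87 for *C4b*, -0.40 for *Serping1* and -0.18 for *C1ra*. For *C3* the sign differed, with -0.68 over all cells (636 and 395 CPM) and 0.26 at the PBS make-up. The classes that supplied the UMIs shifted too. Fibroblast-like cells held 96.6% of the *C3* UMIs in PBS and 76.7% in DTX, and macrophage-like cells 2.08% and 21.4%. For *Cfb* fibroblast-like cells held 92.1% and 53.5%, and macrophage-like cells 6.20% and 43.3%. Pericyte-like cells, 1.69% of DTX cells, held 13.6% of its *C2* and 10.7% of its *Serping1* UMIs. Macrophage-like cells held 66.4% and 85.4% of the *Cfp*, 86.4% and 95.1% of the *C3ar1* and 85.2% and 91.2% of the *C5ar1* UMIs.

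**Figure D5:**
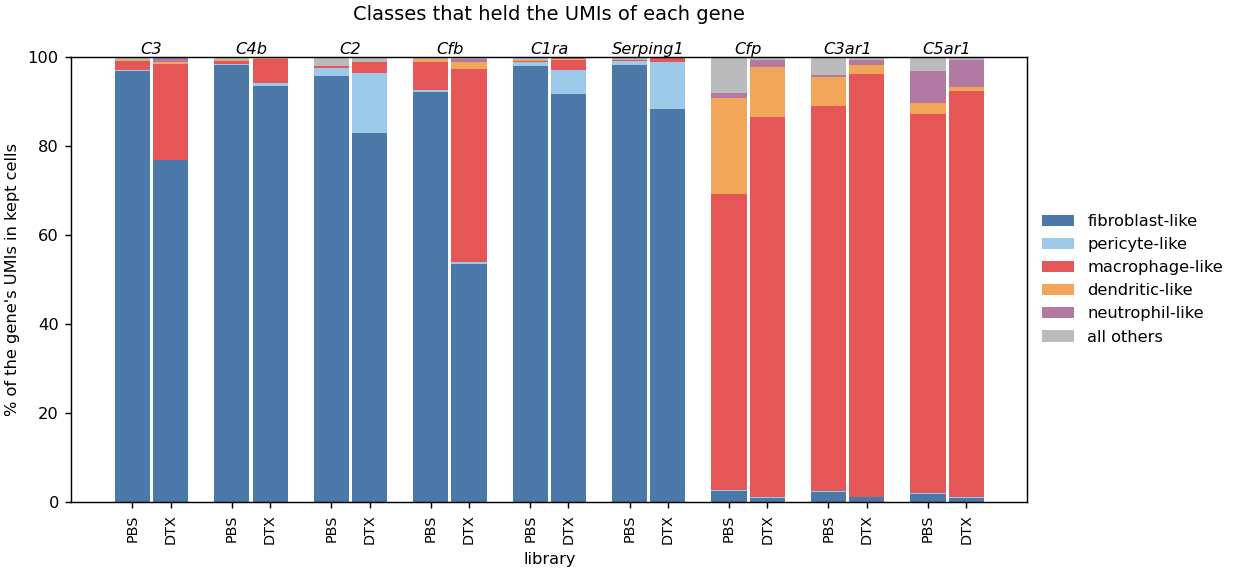
Share of each gene's UMIs (vertical axis, percent of all kept cells) held by 5 classes and by all others together, with a PBS and a DTX bar for each gene. Macrophage-like cells (red) held 2.08% of the C3 and 6.20% of the Cfb UMIs in PBS and 21.4% and 43.3% in DTX.

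Other complement genes were counted as a list of 46, of which 45 are in the gene list. In macrophage-like cells 14 had at least 50 UMIs. Of these 6 were at least 2-fold lower in DTX, namely *C1qa*, *C1qb* and *C1qc*, which encode the chains of C1q, *C1s1*, *Fcna* and *Itgax*, and 1 was higher, against 3.29% and 1.61% of all genes in this class. *C1s1* was lower beside fibroblast RNA at 906 CPM in PBS and 182 CPM in DTX, whose part in its value was not tested. The higher one, *Itgam*, encodes a chain of complement receptor 3 and was at 143 and 299 CPM, a ratio of 1.06 (0.97 to 1.14), while *Itgax*, for a chain of complement receptor 4, was at 48.8 and 20.5 CPM (-1.21, from -1.39 to -1.04). *C1qa* was at 2064 and 766 CPM (-1.43, from -1.46 to -1.40), so that the C1q chains and *C5ar1* differed between the libraries in opposite directions in this class. In fibroblast-like cells 21 of the list had at least 50 UMIs, with 1 lower (*C6*) and 8 higher, against 1.40% and 2.64% of all genes. The 8 included the leukocyte genes *C1qa*, *C1qb*, *C1qc*, *Itgam*, *Itgb2* and *Cd93*, beside macrophage RNA at 138 CPM in PBS and 413 CPM in DTX, whose part in these values was not tested. Fibroblast cluster 4 held 1389 of the 4852 UMIs of that RNA in PBS and 2847 of the 4018 in DTX. *C1s1*, the partner of *C1ra*, was at 471 and 474 CPM in fibroblast-like cells, a ratio of 0.01 (-0.04 to 0.06). *Masp1*, a protease of the lectin route, was at 79.4 and 68.8 CPM there, and *Cd55*, which limits the C3-cleaving enzymes on cell surfaces, at 114 and 121 CPM.

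The genes whose class levels were most like each member were taken by Pearson correlation over the same 16 points, among 8468 genes. For *C4b* these were *Ctsk*, *Lox* and *Olfml3* (0.95 to 0.97), and for *Serping1* the matrix genes *Col5a1*, *Col5a2* and *Pcolce* (0.99). *C1ra* was most like *Fgf7*, *Col5a2* and *Ptx3* (0.98 to 0.99), *C2* like *P4ha3*, *Scarf2* and *Snhg18* (0.98 to 1.00), and *C3* like *Lpar1*, *Fam102b* and *Pdpn* (0.93 to 0.97). *Cfb*, measured in both fibroblast-like and macrophage-like cells, had lower values with *Fn1*, *Fos* and *Dpp7* (0.87 to 0.89). Among the leukocyte genes *Cfp* was most like *Spi1*, *Gm6377* and *Mrc1* (0.98), *C3ar1* like *Fcgr1*, *Adgre1* and *Clec4a3* (0.97), and *C5ar1* like *Ccr1*, *Clec4d* and *Itgam* (0.95 to 0.99).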

How the data were processed

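The authors deposited raw UMI counts per gene and cell from a Chromium 3' v3 kit, made with Cell Ranger against mm10 and not normalised. The methods and the files name different Cell Ranger versions (6.1.1 in the file header), and the paper's text gives the larger number of cells to the Mrc1-DTR mice, whereas the labels give it to PBS. The labels were followed. The methods state technical replicates, and whether a library joins them could not be told. The files held 12058 PBS and 11031 DTX barcodes (105511870 and 81858751 UMIs).

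Scrublet (scanpy 1.11.5) removed 4.59% of PBS cells. It called 0 DTX cells, so the top 8.00% of scores were removed there. The study's limit of 2000 genes per cell was used as an alternative only. Cells were clustered with Seurat 5.3.0 in R 4.3.3 (2000 variable genes without complement genes, 30 components, resolution 0.2, macrophages 0.5). Marker rules named the clusters, 16 in all, and a myocyte-like class of 18 cells was not compared. The dendritic-like cluster 8 had no dendritic marker among its 10 leading genes. Fibroblast-like cells came from 2 clusters, and 1 of them had no fibroblast marker among its 10 leading genes, with 7 of 7 markers raised. Levels were summed per class, since cells are not replicates. Intervals are exact Poisson for levels, Clopper-Pearson for shares and conditional binomial for ratios. They were computed with scipy 1.17.1. The ratio interval was tested on counts simulated with Poisson noise only, which cannot show how it covers the spread between cells. Thinning left out 490 PBS and 422 DTX cells under 2000 UMIs. The 9 members, all of which are named, the lists of other genes and the markers were chosen with earlier results of these data known. One gene of the list of other complement genes is not reported here.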

Additional observations from a re-analysis of the deposited data

Results flagged for a closer look

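3 genes differed between the libraries in opposite directions in different classes, with counting intervals that exclude 0. With 1 library per group the difference between classes was not tested. *C3* had a log2 ratio of DTX to PBS of 0.27 in fibroblast-like cells and of -3.01 in pericyte-like cells, where 1 PBS cell held 71 of the 131 UMIs. *Cfp* had 2.72 in epithelial-like cells (46 and 63 UMIs) and -1.88 in mast-like cells (54 and 11 UMIs). The 8 macrophage genes were at 117 CPM in PBS and 448 CPM in DTX epithelial-like cells, and at 150 and 1266 CPM in mast-like cells. *Serping1* had 0.55 in pericyte-like cells (764 and 2102 UMIs) and -2.23 in epithelial-like cells (484 and 11 UMIs). The 6 fibroblast genes were at 711 and 93.8 CPM in epithelial-like cells, which had 23.9 and 30.2 *Serping1* UMIs per 1000 of theirs.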

How the results depend on the processing

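No paired analysis was possible because each group is 1 library, which also leaves no replicate to leave out. Of 45 log2 ratios of members over the classes, which count the same genes again in each class, 20 were at least 2-fold. In the classes with such ratios, 1.00% (dendritic-like, higher) to 11.7% (mast-like, higher) of all genes were 2-fold apart in 1 direction. Each of the 20 for which an alternative gave a value kept its direction. With 10 CPM added 16 of the 20 stayed at least 2-fold, and 13 of all 45 ratios left their counting interval of the main setting. That number was 11 of 45 with at most 10% mitochondrial UMIs and 8 of 17 under the limit of 2000 genes. With the DTX clusters weighted as in PBS, chosen after seeing the clusters, it was 12 of 17, and 4 of 6 stayed 2-fold. The limit of 2000 genes per cell gave values for 3 of the 20, which stayed 2-fold. Under that limit 1 member (*C4b*) in place of 0 was 2-fold lower in fibroblast-like cells, and 0 in place of 3 were counted as higher because those 3 had too few UMIs to compare. Without fibroblast cluster 4, an alternative chosen after seeing the data, 0 in place of 3 were higher, with *Cfp* at 0.68 and the other two under 50 UMIs. Under the limit of 2000 genes, with at most 10% mitochondrial UMIs and with complement genes kept in the clustering, 2 members in place of 1 were highest in PBS macrophage-like cells, the second being *Cfp*. Thinning to 1000 in place of 2000 UMIs moved 84 of 180 shares out of their counting intervals. A lower depth by itself lowers such shares, so this count does not test the differences between the libraries. Ratios of classes with few UMIs are limited by depth.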
